A study of Mus musculus with 6 samples.

Results

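The TGF-beta and activin signalling genes described here were 10 genes chosen by symbol: the ligands Tgfb1 and Tgfb2, the receptors Tgfbr1 and Tgfbr2, the inhibitory SMADs Smad6 and Smad7, and the inhibin beta subunits Inhba, Inhbb, Inhbc and Inhbe. All 10 were found among the 35970 gene symbols of the series, and 8 of them reached the mean of 1 TPM, a length-corrected share of a library, that was required for testing. Tgfb2 and Inhba stayed below it. The 6 libraries came from livers of Fah-/-;dCas9+ mice, which lack the last enzyme of tyrosine breakdown and carry a cleavage-dead Cas9 that represses a gene when a guide RNA brings it there (CRISPR interference, CRISPRi). All mice had been kept on 7.5 µg/mL nitisinone, the drug that protects Fah-deficient hepatocytes, and lost it when they were injected. Each received 10 µg of a transposon plasmid that carries Fah, the ribosomal protein L10a fused to GFP, and a guide RNA, together with AAV8.TBG.PI.Cre.rBG, a virus that brings Cre under the hepatocyte promoter TBG. The guide was non-targeting in 3 mice and directed against Neurl1b in the other 3, and livers were collected after 4 weeks. RNA was taken from ribosomes pulled down through the GFP tag, so the values describe mRNA attached to tagged ribosomes and whatever else the pull-down carried along.

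TGF-beta and activins are secreted dimers that bind a type II receptor, which then switches on a type I receptor. The type I receptor phosphorylates SMAD2 and SMAD3, which enter the nucleus with SMAD4. SMAD6 and SMAD7 are induced by the pathway and by the related bone morphogenetic proteins (BMPs), and they shut the receptors down again. In liver, TGF-beta is known as a brake on hepatocyte division and as the main fibrogenic signal to stellate cells. Activin A, a dimer of Inhba products, also restrains hepatocyte growth, while Inhbc and Inhbe are beta subunits made mainly by hepatocytes.

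Promoter sequences are shown for 3 tested genes. Their groups were separate, and their windows hold no annotated exon of another gene or of their own. They are Tgfb1 and Inhbb, with higher values in the Neurl1b CRISPRi libraries, and Inhbc, with lower ones. Tgfbr1 met this rule too, but only by a narrow margin, and was left out after its values were seen. With the scaling described below its groups stayed separate, while those of Tgfb1 overlapped. RefSeq's GRCm38.p6 windows were found for 9 of the 10 genes, all except Smad7. Each run below is the 250 bases before the RefSeq start, on the gene's strand, and capitals mark matches on either strand to a SMAD-type motif (CAGAC), the core of the TATA box (TATAAA), an AP-1 motif (TGANTCA), a composite motif of CEBP and ATF factors (TGATGNAA) or an E-box (CACGTG).
Tgfb1, chr7:25686752-25687001, plus strand: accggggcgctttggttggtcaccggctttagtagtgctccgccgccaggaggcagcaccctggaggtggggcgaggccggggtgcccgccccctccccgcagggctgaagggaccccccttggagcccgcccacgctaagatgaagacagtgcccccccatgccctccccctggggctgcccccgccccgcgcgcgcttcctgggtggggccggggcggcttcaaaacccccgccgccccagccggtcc
Inhbb, chr1:119422249-119422498, minus strand: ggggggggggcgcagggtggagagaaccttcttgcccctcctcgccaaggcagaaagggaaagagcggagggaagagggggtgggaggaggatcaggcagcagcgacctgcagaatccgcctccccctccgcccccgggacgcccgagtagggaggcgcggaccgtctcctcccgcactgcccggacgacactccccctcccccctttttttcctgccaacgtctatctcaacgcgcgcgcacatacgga
Inhbc, chr10:127370549-127370798, minus strand: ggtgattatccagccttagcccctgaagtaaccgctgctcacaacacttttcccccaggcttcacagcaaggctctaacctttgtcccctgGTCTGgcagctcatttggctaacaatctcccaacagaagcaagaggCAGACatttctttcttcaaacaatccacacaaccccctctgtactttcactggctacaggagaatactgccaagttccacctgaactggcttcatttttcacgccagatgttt

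The Tgfb1 and Inhbb stretches had no match to these 5 motifs. Also searched on both strands, but not in capitals, were shorter or GC-rich SMAD-type motifs (AGAC, GGCGC and GGCCG), which occur in 88.0%, 36.9% and 35.2% of all windows. Tgfb1 had 1, 1 and 2 matches to them in the stretch shown, Inhbb had 2, 2 and 0, and an AGAC match can lie inside a CAGAC match. Their stretches had a GC content of 75.2% and 68.0%, against a median of 52.4% over all windows. The Inhbc stretch had 48.8% GC and 2 CAGAC matches, whose first bases lie 159 and 113 bases before the start. RefSeq starts Inhbc 117 bases upstream of GENCODE vM21. CAGAC occurs in 49.6% of the 32851 windows of 300 bases, so its presence is common. TATAAA occurs in 13.6%, the AP-1 motif in 7.81% and the E-box in 7.15%. Inhbe neighbours Inhbc on chromosome 10, and its window lies inside the first exon that GENCODE vM21 draws for the transcript in the table. Only a 30-base piece is therefore given, around its match to the CEBP-ATF composite motif TGATGNAA, 181 bases before the RefSeq start at chr10:127352011-127352040 on the minus strand.
Inhbe: catcctctttcTTGCATCAtgcatgtccac

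The composite motif occurs in 3.97% of all windows. These matches are letters in a window, and binding was not measured.

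Neurl1b, an E3 ubiquitin ligase gene that acts in Notch signalling, was checked first as the target of the guide. Its TPM was 1.22, 0.897 and 0.688 in non-targeting mice 1, 2 and 3, and 0.295, 0.351 and 0.307 in the CRISPRi mice. All CRISPRi values lay below all controls, with a 2.95-fold lower mean, and the gene was below the filter for testing. In limma over 10598 tested genes, 2 genes (0.0189%) passed an adjusted p of 0.05, and 0 of the 8 tested pathway members were among them. Non-targeting mouse 1 stood apart from the other controls in several of the genes below. Over all tested genes it correlated at 0.982 to 0.987 with the CRISPRi libraries, and at 0.965 and 0.974 with the other controls. Non-targeting mouse 2 was the control least like the CRISPRi libraries, at 0.950 to 0.959, and correlated at 0.978 with non-targeting mouse 3. Leaving out non-targeting mouse 1 raised the number of genes called from 2 to 2673. Values without that mouse are therefore given beside each of the 10 genes and for the pathway lists. For the pathway lists, none are given without non-targeting mouse 2. Leaving out any other single mouse gave 0 to 4 genes. Values without non-targeting mouse 1 thus lack the control most like the CRISPRi libraries, and larger group differences are built into that choice. The libraries also differed in scale. Median-of-ratios size factors were 0.848 and 0.838 in non-targeting mice 2 and 3 against 1.05 to 1.12 in the other 4 libraries. Scaling by them moved the median over all tested genes of the log2 fold change from 0.18 to -0.0013. A change of +0.18 is therefore the level of an average gene in the unscaled fit.

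Hepatocyte markers were abundant in every library, with the albumin gene Alb at 11518 to 31253 TPM. RNA of other liver cells was present at lower levels. The summed TPM of 10 stellate cell markers was 36.5, 26.9 and 49.9 for the controls and 78.3, 87.6 and 62.7 for the CRISPRi mice, a 2.02-fold difference of the means with no overlap (exact two-sided permutation p = 0.1, the smallest that 3 against 3 allows). This and the other marker sums are not scaled by the size factors. Scaling would raise the sums of non-targeting mice 2 and 3 and lower the rest, which narrows this gap. Divided by their size factors of 0.838 and 1.05, the sums of non-targeting mouse 3 and CRISPRi mouse 3 come out almost level. No clear separation of the stellate cell sums then remains. Ecm1 gave the largest part of the stellate cell sum, with a mean of 15.45 TPM in the controls and 33.6 in the CRISPRi mice. Unscaled, the groups overlapped for Pdgfrb and Col1a1. They were separate, with higher CRISPRi values, for the other genes of the list. All 10 stellate cell genes were above 0 somewhere, and the defining marker Lrat had 0.501 to 1.02 TPM in the controls and 1.66 to 1.71 in the CRISPRi mice. Sums of 10 Kupffer cell and macrophage markers ran from 74.0 to 142.5 and from 111.7 to 162.7, and those of 10 endothelial markers from 21.6 to 30.2 and from 21.3 to 34.3, so both sums overlapped. Their single genes did not all overlap. Vsig4, Timd4, Adgre1 and Csf1r of the macrophage list and Stab2 and Cdh5 of the endothelial list were separate and higher with CRISPRi. Pecam1 was separate and lower, and the rest overlapped. Among all tested genes, 12.5% were separate and higher and 4.57% separate and lower. Sums of the cholangiocyte, neutrophil and lymphocyte lists overlapped too, at 13.6 to 29.0, 3.87 to 56.7 and 1.43 to 2.98 TPM over all libraries. Summed TPM of the 9 hepatocyte markers in the table was 29187 to 59479 for the controls and 25524 to 34600 for the CRISPRi mice. In such pulled-down RNA, the number of cells of a type, the RNA per cell and the carry-over in the pull-down cannot be told apart.

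**Figure D1:**
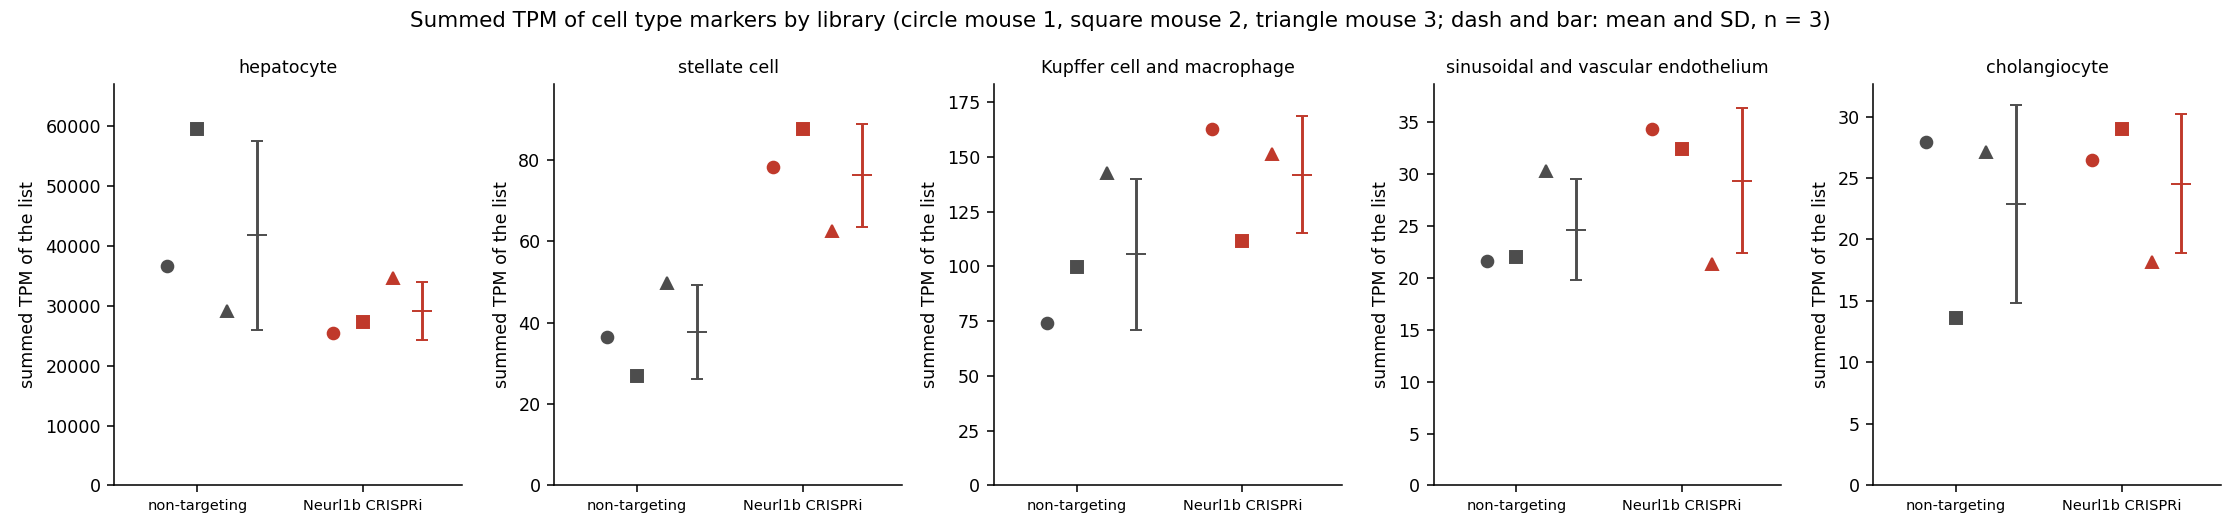
Summed TPM, not scaled by the size factors, of 5 of the 7 marker lists (vertical axes, from 0) in the 3 non-targeting and 3 Neurl1b CRISPRi libraries, with symbols for the mouse number and the mean and SD at the side. The stellate cell sums lie at 62.7 and above in the CRISPRi mice and at 49.9 and below in the controls, while the sums of the other 4 lists shown overlap. Dividing by the size factors would bring the stellate cell sums of 62.7 and 49.9 almost level.

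Of the ligands, Tgfb1 was the higher by far. Its TPM was 3.60, 3.30 and 3.98 in non-targeting mice 1, 2 and 3, and 5.11, 4.81 and 5.24 in CRISPRi mice 1, 2 and 3. Every CRISPRi library lay above every control, and the replicates within each group were close together. The means were 3.63 ± 0.341 and 5.05 ± 0.223 (SD, n = 3 each), a 1.39-fold difference. On the scale of log2(TPM + 1) the difference, here called the log2 fold change, was 0.39 (SE 0.16, limma unadjusted p = 0.0425, adjusted p = 0.368), of which the shift of all genes is 0.18. After median-of-ratios scaling the groups overlapped and the log2 fold change was 0.21. Leaving out non-targeting mouse 1 gave 0.39 unscaled (limma adjusted p = 0.0678) and 0.10 scaled (SE 0.13). Without non-targeting mouse 2 the unscaled value was 0.34 (limma adjusted p = 0.792). Stellate cell and macrophage markers mark cells known to make TGF-beta. Their mean unscaled sums were higher in the CRISPRi mice, but the macrophage sums overlapped between the groups (exact two-sided permutation p = 0.2), with single macrophage markers separate as given above. The part of these cells in this and the other differences of this pathway was not tested.

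Tgfb2, a second isoform of the ligand, was close to the bottom of the measured range. The table gives 0.0988, 0.0144 and 0.123 TPM for the controls and 0.371, 0.318 and 0.172 for the CRISPRi mice. These groups did not overlap either, with means of 0.0788 ± 0.0571 and 0.287 ± 0.103 (SD, n = 3 each). In the fit without the filter the log2 fold change was 0.25 (SE 0.07, limma unadjusted p = 0.0126, adjusted p = 0.465). The value was 0.27 without non-targeting mouse 1 (limma adjusted p = 0.147). TPM keep no read depth, so the precision of values this low is unknown. The remaining isoform, Tgfb3, had 0.112 to 0.298 TPM with a non-targeting guide and 0.145 to 0.256 with the Neurl1b guide.

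The receptors both had higher means in the CRISPRi mice. Tgfbr2 encodes the type II receptor that binds the ligand. Its TPM was 9.26, 4.32 and 4.61 in non-targeting mice 1, 2 and 3, and 11.9, 9.43 and 9.13 in the CRISPRi mice. Non-targeting mouse 1 was slightly above CRISPRi mouse 3, and the other controls lay far below. The means were 6.06 ± 2.77 and 10.2 ± 1.53 (SD, n = 3 each), a 1.68-fold difference, with a log2 fold change of 0.72 (SE 0.27, limma unadjusted p = 0.0283, adjusted p = 0.346). Without non-targeting mouse 1 it passed, at 1.02 (SE 0.15, limma adjusted p = 0.0174). With median-of-ratios scaling as well the log2 fold change was 0.72 (SE 0.14) and the adjusted p was 0.0513. Leaving out non-targeting mouse 2 instead, unscaled, gave 0.55 (limma adjusted p = 0.784). With scaling and all libraries, the groups no longer overlapped, and the log2 fold change stood at 0.54 (SE 0.19; limma adjusted p = 0.342).

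Tgfbr1, the type I receptor also called ALK5, had a TPM of 2.11, 1.70 and 1.41 in the controls and 2.67, 2.38 and 2.12 in the CRISPRi mice. The highest control and the lowest CRISPRi library were almost equal. Its fitted difference was 0.31 (SE 0.17, limma adjusted p = 0.426), and 0.17 after scaling, where the groups also stayed apart. With non-targeting mouse 1 left out it was 0.41 (limma adjusted p = 0.0728) and, scaled, 0.18. With non-targeting mouse 3 left out instead it was 0.22 unscaled (limma adjusted p = 0.705). Tgfbr2 exceeded Tgfbr1 in all 6 libraries. The ratio of their TPM, which no library scaling can alter, was 4.38, 2.55 and 3.26 for the controls and 4.46, 3.97 and 4.30 with CRISPRi (two-sided exact permutation p = 0.3). All of the Tgfbr1 signal was in 1 of its 5 transcripts, and 96.7% of that of Tgfbr2 in 1 of its 2.

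**Figure D2:**
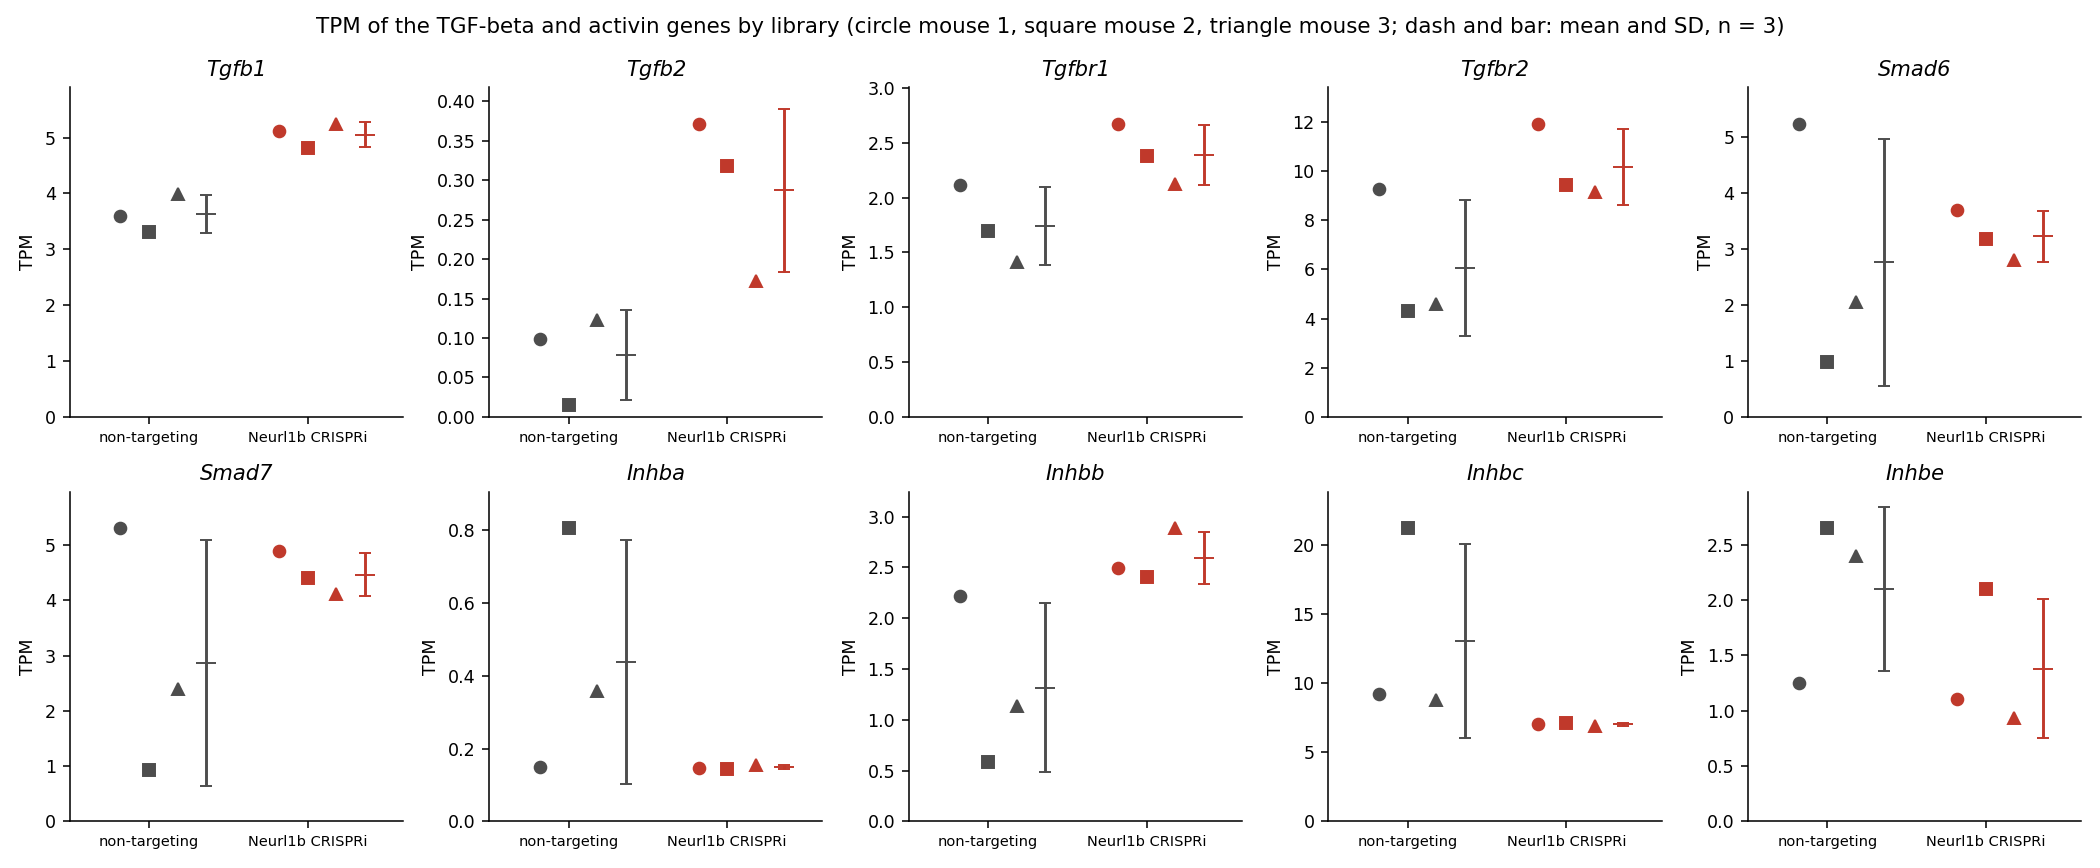
TPM of the 10 genes (vertical axes, linear and from 0) in each library, grouped by guide, with symbols for the mouse number and the mean and SD at the side. Non-targeting mouse 1 sits at or above the CRISPRi level for Smad6 and Smad7, and Inhbc is between 6.94 and 7.11 in all 3 CRISPRi libraries.

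The inhibitory SMADs varied widely among the controls. Smad7, which recruits ubiquitin ligases to the TGF-beta receptor, had a TPM of 5.30, 0.925 and 2.39 in non-targeting mice 1, 2 and 3, and 4.88, 4.40 and 4.11 in the CRISPRi mice. The highest and the lowest library were thus both controls, while the CRISPRi libraries were close together. Its mean was 2.87 ± 2.23 against 4.46 ± 0.392 (SD, n = 3 each), with a fitted difference of 0.66 (SE 0.38, limma adjusted p = 0.432). Smad6, which acts chiefly on BMP receptors, followed the same order among the controls, with 5.24, 0.991 and 2.06, and had 3.70, 3.18 and 2.80 in the CRISPRi mice. For Smad6 the log2 fold change came to 0.32 (SE 0.37, limma adjusted p = 0.650). Without non-targeting mouse 1, the log2 fold change was 1.09 for Smad7 and 0.77 for Smad6 (limma adjusted p = 0.0321 and 0.0497), and with scaling as well the adjusted p rose to 0.102 and 0.173. Without non-targeting mouse 2, the value for Smad6 was -0.05 and that for Smad7 fell to 0.24 (limma adjusted p = 0.960 and 0.848). The direction for Smad6 and most of the difference for Smad7 therefore rest on that control.

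The balance between the inhibitory SMADs was steadier than their levels. The ratio of Smad7 to Smad6 TPM was 1.01, 0.934 and 1.16 with a non-targeting guide and 1.32, 1.39 and 1.47 with the Neurl1b guide. All 3 CRISPRi libraries lay above all controls, non-targeting mouse 1 included. The mean ratios were 1.04 ± 0.115 and 1.39 ± 0.0737 (SD, n = 3 each), with an exact two-sided permutation p of 0.1, the smallest possible. This ratio and the others of its kind were chosen after the values had been seen, and 10 such quantities were computed, over which the Benjamini-Hochberg adjusted value of each p of 0.1 is 0.167.

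Inhbc was the most abundant of the 10 genes by its mean over all libraries, 10.0 TPM, and the only tested one whose groups were separate in the lower direction. Its product forms activin C, a hepatocyte-derived subunit that can dimerise with other beta subunits. Its TPM was 9.19, 21.2 and 8.81 in non-targeting mice 1, 2 and 3, and 7.03, 7.11 and 6.94 in the CRISPRi mice. The CRISPRi libraries were nearly identical, and non-targeting mouse 2 was far above the other controls. The same mouse had the highest hepatocyte marker sum, 59479 TPM, and the highest neutrophil marker sum, 56.7 TPM. The single hepatocyte markers did not all go that way. Alb, Apoa1, Ttr, Apob and Fgb were highest in this mouse, but Cps1, Hnf4a and Tat were not. Ass1 was lowest there, at 2726 TPM. The part of these differences in the Inhbc value of this mouse was not tested. The mean TPM was 1.86-fold lower in the CRISPRi mice (13.1 ± 7.04 against 7.03 ± 0.0822, SD, n = 3 each). The fitted log2 fold change amounted to -0.70 (SE 0.31, limma unadjusted p = 0.050, adjusted p = 0.376). After median-of-ratios scaling it was -0.90 (SE 0.35) and the groups stayed apart. It was -0.88 when non-targeting mouse 1 was left out (limma adjusted p = 0.0963) and, scaled, -1.20 (adjusted p = 0.0820). Without non-targeting mouse 2 it was -0.32 (SE 0.19, limma adjusted p = 0.792), so the size of the difference rests mainly on that library.

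Inhbe, the hepatocyte gene of activin E, had 1.25, 2.65 and 2.40 TPM in the controls and 1.10, 2.09 and 0.935 in the CRISPRi mice. Non-targeting mouse 1 and CRISPRi mouse 2 crossed over, and the groups overlapped. Its fitted difference was -0.38 (SE 0.26, limma adjusted p = 0.471). Without non-targeting mouse 1 it was -0.60 (SE 0.23, limma adjusted p = 0.0970), and -0.83 (adjusted p = 0.0739) with scaling as well. It was -0.25 both without non-targeting mouse 2 (limma adjusted p = 0.839) and without CRISPRi mouse 3 (adjusted p = 0.704). Its transcript is 5319 nt in GENCODE vM21, while the whole gene spans 2447 nt in RefSeq, which starts it 2563 bases further downstream. Because TPM divide by transcript length, the level of Inhbe relative to other genes depends on which model is used. Whether its comparison between groups does was not tested.

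Inhbb, the subunit of activin B, had higher values in the CRISPRi mice. It had 2.22, 0.588 and 1.14 TPM in non-targeting mice 1, 2 and 3, and 2.49, 2.40 and 2.88 in the CRISPRi mice. The groups were separate, though non-targeting mouse 1 was close to the CRISPRi level. The means were 1.31 ± 0.831 and 2.59 ± 0.255 (SD, n = 3 each), a 1.97-fold difference, and the log2 fold change was 0.69 (SE 0.26, limma unadjusted p = 0.0257, adjusted p = 0.344). It was 0.58 (SE 0.21) after scaling. Inhbb passed without non-targeting mouse 1, with 0.96 (SE 0.17, limma adjusted p = 0.0213), and with scaling as well it had 0.76 (adjusted p = 0.0662). Leaving out non-targeting mouse 2 instead gave 0.45 (limma adjusted p = 0.781).

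Inhba, whose dimer is activin A, was low throughout. Its TPM was 0.149, 0.805 and 0.359 in the controls and 0.146, 0.145 and 0.155 in the CRISPRi mice. Non-targeting mouse 1 was at the CRISPRi level and the other controls were higher. In the fit without the filter the log2 fold change stood at -0.30 (SE 0.16; limma adjusted p = 0.541). This became -0.45 without non-targeting mouse 1 (limma adjusted p = 0.117) and -0.12 without non-targeting mouse 2 (adjusted p = 0.833). Both of its transcripts contributed, with 61.3% and 38.7% of the signal. The alpha subunit gene Inha, with which beta subunits form inhibins, was listed at 0 in 5 libraries and at 0.0357 TPM in the sixth.

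The makeup of the inhibin beta subunits was also computed within each library. Inhbc held 71.7%, 84.0% and 69.3% of their summed TPM in the controls and 65.3%, 60.5% and 63.6% in the CRISPRi mice. Inhbb held 17.3%, 2.33% and 8.95% against 23.1%, 20.5% and 26.4%. Neither pair of groups overlapped (exact two-sided permutation p = 0.1 for each, adjusted 0.167). For Inhbb this had to follow, since its TPM was separate and higher and the summed TPM of the subunits separate and lower. The p of the Inhbb share therefore adds nothing to those values. Inhbe held 8.56% to 18.9% and Inhba 1.16% to 3.19%, both with overlapping groups (exact permutation p = 0.6 and 0.4). Ratios of Inhbc to Inhbe overlapped as well, at 3.67 to 8.01 for the controls and 3.39 to 7.43 with CRISPRi. The summed TPM of the 4 subunits was 12.8, 25.2 and 12.7 against 10.8, 11.7 and 10.9.

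**Figure D3:**
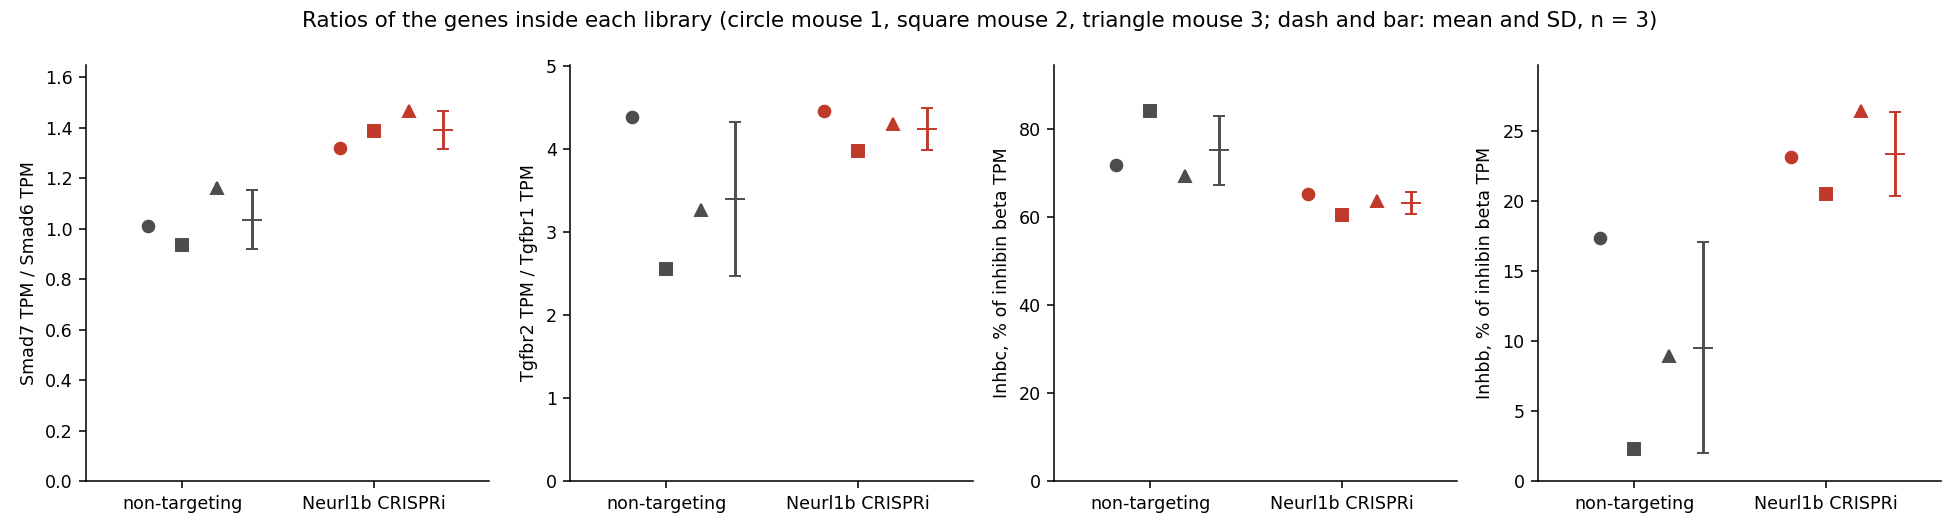
Ratios and shares computed inside each library (vertical axes from 0), with symbols for the mouse number and the mean and SD at the side. The Smad7 to Smad6 ratio is 1.32 or more in the CRISPRi mice and 1.16 or less in the controls, and the Inhbb share is 20.5% or more against 17.3% or less.

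The highest levels came in a different order in the groups. In all 3 CRISPRi libraries Tgfbr2 exceeded Inhbc, and Tgfb1 followed. In non-targeting mice 2 and 3 Inhbc was highest, and in mouse 1 it was nearly equal to Tgfbr2 (9.19 and 9.26 TPM). Among the lower genes, the means of Smad7 and Smad6 in the controls (2.87 and 2.76) differed by far less than their SD, and those of Tgfbr1 and Inhbb in the CRISPRi mice (2.39 ± 0.275 and 2.59 ± 0.255) by less than 1 SD. Tgfb2 and Inhba had the lowest 2 means in both groups.

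Counted together, 6 of the 8 tested genes had a log2 fold change above 0, against 74% of all tested genes. Their median was 0.36, and 0.20 after scaling, against 0.18 and -0.0013 for all genes. Groups were separate with higher CRISPRi values for 3 of the 8 (Tgfb1, Tgfbr1 and Inhbb; background 12.5%) and with lower ones for 1 (Inhbc; background 4.57%). After scaling these were Tgfbr1, Tgfbr2 and Inhbb (background 9.42%) and Inhbc (9.37%). At an unadjusted p below 0.05 in limma there were 3 higher (Tgfb1, Tgfbr2 and Inhbb; background 10.1%) and 1 lower (Inhbc; background 3.19%). After scaling there were 2 higher, Tgfbr2 and Inhbb (background 6.44%), and 1 lower, Inhbc (6.66%). With 8 genes, each of these counts is 1 to 3 genes.

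Without non-targeting mouse 1, 4 of the 8 passed an adjusted p of 0.05 in limma as higher, namely Tgfbr2, Smad6, Smad7 and Inhbb, where 23.1% of all genes did. None passed as lower, where 2.24% of all genes did. With median-of-ratios scaling as well, 0 of the 8 passed in either direction (background 1.74% higher and 2.74% lower, 473 genes in all). An unadjusted p below 0.05 in that fit was reached by Tgfbr2, Smad7 and Inhbb as higher (background 14%) and by Inhbc and Inhbe as lower (background 16.5%), with p of 0.00244 to 0.0191.

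**Figure D4:**
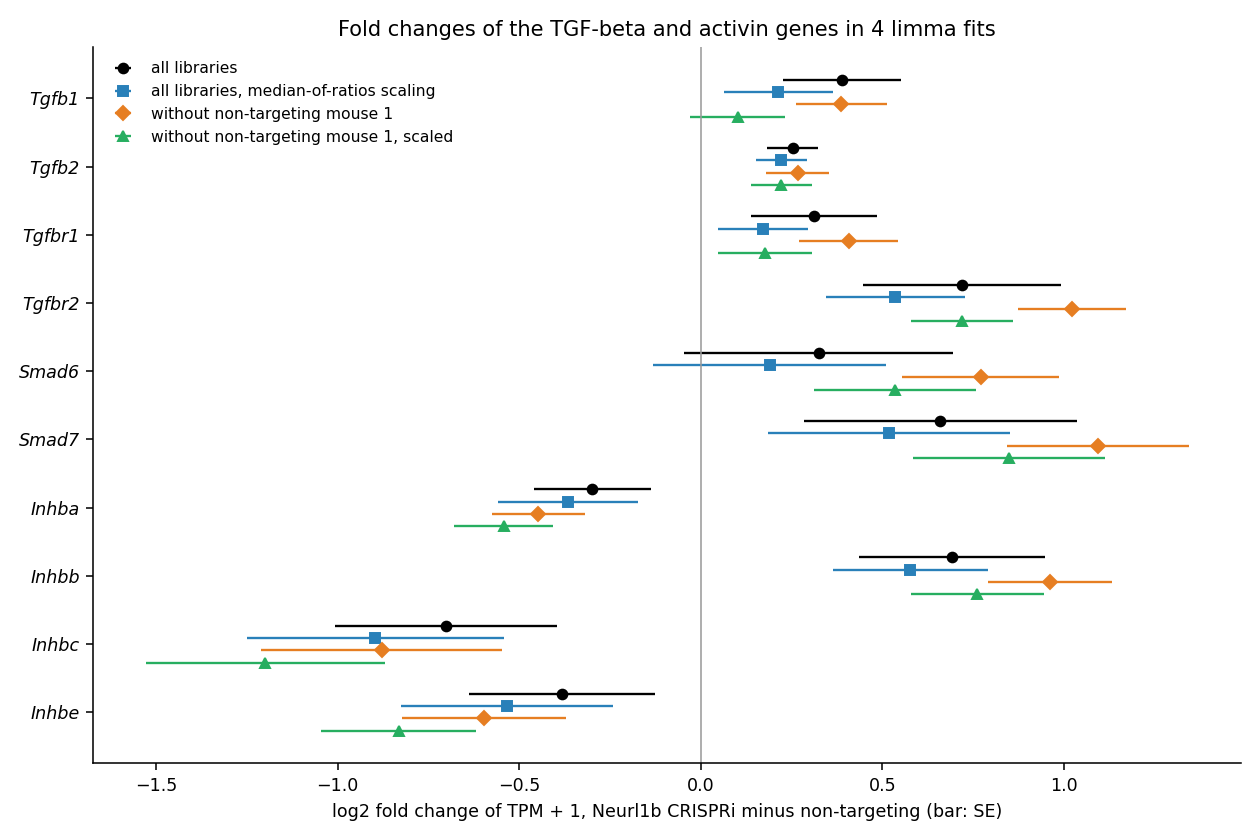
Log2 fold changes of TPM + 1 (horizontal axis, Neurl1b CRISPRi minus non-targeting) with their SE for the 10 genes in 4 limma fits, with and without median-of-ratios scaling and with and without non-targeting mouse 1. Inhba, Inhbc and Inhbe lie below 0 and the other 7 above it in each of these 4 fits. Tgfb2 and Inhba come from fits without the filter on low values.

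The rest of the pathway was read from 9 lists with 120 genes, of which 75 were tested. None of the 75 passed an adjusted p of 0.05 in limma (lowest 0.310), 15 had an unadjusted p below 0.05, all with higher CRISPRi values (10.1% of all tested genes did), and 14 had separate groups, all higher (12.5% of all tested genes). Without non-targeting mouse 1, 15 of the 75 passed as higher (23.1% of all genes) and 1 as lower (2.24%), and with scaling as well 0 passed as higher (1.74%) and 1 as lower (2.74%). Over the 75 genes the median log2 fold change was 0.27, and 0.11 after scaling. Of the 75, 63 lay above 0, where 74% of all tested genes did. After scaling 55 did, where 49.8% of all tested genes did. These 2 shares are the background for the count above 0 in each list below. Other ligands of the TGF-beta and activin branch were below the filter in all 8 cases. Among proteins that hold or release latent TGF-beta, 5 of 6 tested genes lay above 0. Ltbp4, a latent TGF-beta binding protein gene, had the smallest p (log2 fold change 0.84, limma adjusted p = 0.352), with 1.10, 1.00 and 1.44 TPM in the controls and 4.18, 4.23 and 1.16 in the CRISPRi mice. CRISPRi mouse 3 was thus at the control level. The integrin genes Itgb5 and Itgb1 had 0.33 and 0.32.

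Among the other receptors, 5 of 6 tested genes lay above 0. The endothelial co-receptor gene Eng had a log2 fold change of 0.58, and the activin type I receptor gene Acvr1b had 0.37, both with separate groups. Acvr2b, an activin type II receptor gene, differed from the rest. Its TPM was 0.749, 1.97 and 2.18 in non-targeting mice 1, 2 and 3, and 1.02, 0.894 and 0.780 in the CRISPRi mice. Non-targeting mouse 1 was the lowest library of all, and the other controls were the highest. Its fitted difference was -0.43 (SE 0.24, limma adjusted p = 0.429). Without non-targeting mouse 1 it was -0.70 (limma adjusted p = 0.0230), and -0.91 (adjusted p = 0.0341) with scaling as well, which makes it the 1 list gene that passed as lower in each of these fits. Acvr1b passed as higher in the unscaled one, with 0.51 (adjusted p = 0.0433).

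All 6 receptor-regulated and common SMADs had fold changes above 0, where 74% of all tested genes did, with a median of 0.28. After scaling the median was 0.09 and 4 of 6 lay above 0, where 49.8% of all tested genes did. Smad3, the main DNA-binding effector, had 0.52 (limma adjusted p = 0.375), and Smad4 and Smad2 had 0.31 and 0.24. Smad3 and Smad4 passed without non-targeting mouse 1, with 0.75 and 0.54 (limma adjusted p = 0.0199 and 0.0258), and with scaling as well their adjusted p was 0.0646 and 0.220. Of 17 tested SMAD anchors, corepressors and ubiquitin regulators, 15 lay above 0 with a median of 0.23 (0.04 after scaling). The ubiquitin ligase gene Smurf1 had 0.37, the phosphatase gene Ppm1a 0.34 and Pmepa1 also 0.34. Among extracellular antagonists, all 4 tested genes lay above 0, and 3 of 4 after scaling. The proteoglycan genes Dcn and Bgn, which bind TGF-beta, had log2 fold changes of 1.04 and 0.68 (limma adjusted p = 0.310 and 0.326) with separate groups, and Fstl1 had 0.16. Dcn passed without non-targeting mouse 1 (1.02, limma adjusted p = 0.0498), and scaled it had an adjusted p of 0.166. Dcn is also in the stellate cell marker list, whose unscaled sum was higher in the same libraries. Fst, the activin-binding follistatin gene, was picked after its values were seen and had overlapping groups, with 7.93 to 24.0 TPM for the controls and 9.80 to 16.4 for the CRISPRi mice.

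**Figure D5:**
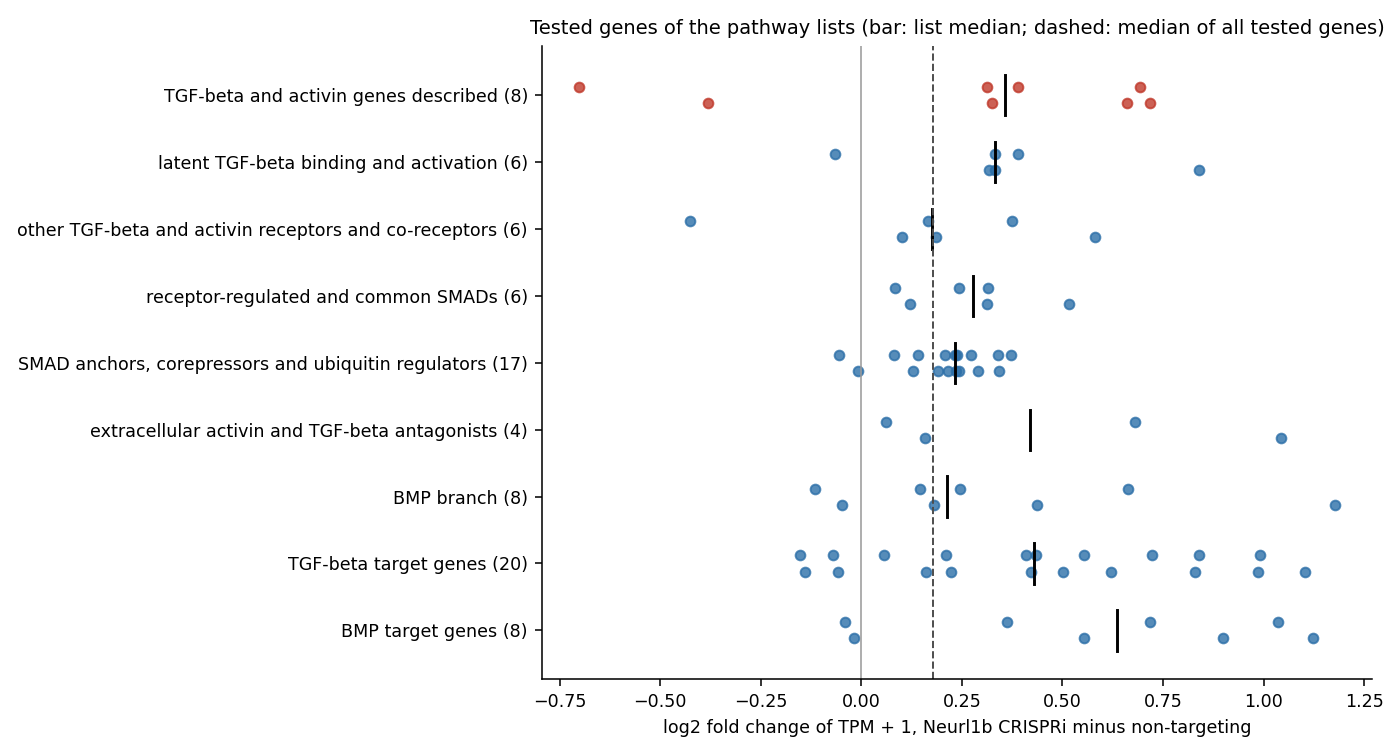
Log2 fold changes of TPM + 1 (horizontal axis) of the tested genes of each pathway list, 1 dot per gene, with the list median as a bar and the median of all tested genes, 0.18, as a dashed line. The top line holds the 8 tested genes described above, whose median is 0.36, and the number tested stands beside each list name.

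In the BMP branch, 6 of 8 tested genes lay above 0. Bmp2 had a log2 fold change of 0.66, Bmp6 1.18 and the hemojuvelin gene Hjv, a BMP co-receptor of hepatocytes, 0.44 (limma adjusted p = 0.330 to 0.371). The groups were separate for Bmp2 and Hjv and overlapped for Bmp6. All 3 passed without non-targeting mouse 1 (0.76, 1.62 and 0.59, limma adjusted p = 0.0421, 0.0273 and 0.0398), and with scaling as well Bmp6 had the lowest adjusted p of the 3, 0.0718. Among TGF-beta targets, 16 of 20 lay above 0, where 74% of all tested genes did, and 7 had an unadjusted p below 0.05, all higher, where 10.1% of all tested genes did, with a median of 0.43 (0.27 after scaling). Timp3, Tpm1 and Ccn2, genes of matrix protection, the cytoskeleton and matrix signalling, had 0.84, 0.72 and 0.55 with separate groups (limma adjusted p = 0.315 to 0.339). They passed without non-targeting mouse 1 (0.91, 0.97 and 0.65, limma adjusted p = 0.0465, 0.0174 and 0.0415), and with scaling as well the adjusted p was 0.111, 0.0545 and 0.117. The collagen gene Col1a1 of this list is also in the stellate cell list, and the part of those cells was not tested. BMP targets had the highest list median, 0.64 (0.43 after scaling), but none had an unadjusted p below 0.05. Id2, Id3 and Atoh8 had 0.72, 1.03 and 0.55, with an SE of 0.45, 0.73 and 0.41 and overlapping groups. Of these, Id2 passed without non-targeting mouse 1 (1.23, limma adjusted p = 0.0439), and scaled it had an adjusted p of 0.149.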

How the data were processed

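Ribosome-bound polyadenylated RNA of 6 mouse livers was sequenced, per the labels' protocols from 400 mg of tissue each. The authors deposited TPM for each transcript, quantified with kallisto on mm39 as the submitters' processing notes name them. The sources used here do not give version, transcript set or filters. Depth is unknown, since each column sums to 1000000.

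TPM were summed by symbol, and genes with a mean of at least 1 entered a fit of limma 3.58.1 (R 4.3.3) to log2(TPM + 1) (trended prior, two-sided, Benjamini-Hochberg over 10598 genes), which understates the change of low genes. Genes below that mean come from a fit without the filter. An n-fold difference compares mean TPM. The test was checked on simulated data with independent genes and no difference in library scale. That check therefore does not cover the effects of scaling or of a single mouse. Members and gene lists were chosen with earlier results of these data known. Named by rule were all 10 members, Neurl1b and the 3 genes of each list with the smallest p. Fst, Tgfb3, Inha, Col1a1, Alb, Lrat and the other single cell type markers were named outside it, after their values were seen. Each group has 3 mice, so p-values measure the spread between mice. Alternatives covered pseudocount, filter, scaling, prior, replicate block, transcript choice and single mice. Promoters are RefSeq windows of GRCm38.p6, another build than the table, and serve only for sequence.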

Additional observations from a re-analysis of the deposited data

How the results depend on the processing

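Of 150 values of the 10 genes under the alternatives, 145 kept their direction and their side of the threshold. Smad6 turned to -0.0538 without non-targeting mouse 2, with a range of -0.0538 to 0.770 over the fits that left out 1 mouse. In the other 4, Tgfbr2, Smad6, Smad7 and Inhbb passed without non-targeting mouse 1. The number of the 10 genes past the threshold ranged from 0 to 4 over those fits, and the number of all genes from 0 (without non-targeting mouse 3, where 920 had an unadjusted p below 0.05) to 2673 (without non-targeting mouse 1). Over all genes, 0 passed with a pseudocount of 5 (1404 at an unadjusted p below 0.05) and 0 without a filter (2132), 1 with a mean TPM of at least 5 and 473 with median-of-ratios scaling and non-targeting mouse 1 left out, against 2 in limma as reported. At a mean TPM of at least 5 only Tgfbr2 and Inhbc were tested. The filter settings give no alternative for Tgfb2 and Inhba, which were fitted without a filter throughout. The mouse numbers share no stated origin, and deviations of same-numbered mice correlated at 0.0614, -0.0960 and -0.277, so they were not taken as pairs. With the mouse number as a replicate block 2 genes and none of the members passed.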
